A study of Drosophila melanogaster with 4 samples.

Results

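The clusters described here are the 3060 regions of arm 2L, the left arm of chromosome 2 of Drosophila melanogaster, that were called enriched for POF in the combined list of a ChIP-seq study and whose midpoints lie between the arm ends, from position 1000001 to 21500000 (FlyBase release 5). They were chosen by position alone, out of 3404 enriched clusters on the whole of 2L and 20574 in the whole list. The span of 20.5 Mb leaves out 1 Mb at the telomere end and 1.51 Mb at the centromere end. In the 2 lists called on single ChIP libraries, the same span held 1007 clusters in replicate 1 and 860 in replicate 2. At the distal edge, the last cluster outside the span ended at 995930 (score 0.47, the authors' own value on what its range shows as a log2 scale) and the first inside began at 1006449 (score 0.44). At the proximal edge, the last inside ended at 21480180 (score 1.01) and the first outside began at 21578377 (score 0.35).

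POF binds RNA and is best known for its presence along chromosome 4 of the fly, where it sits chiefly on transcribed genes and raises their output. Arm 2L is not a chromosome that the protein is known to paint. Clusters on it are regions that the authors called enriched in the precipitated DNA, each with a start, an end and a score.

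Chromatin came from larvae of the 3rd instar of the strain Oregon-R (Oregon-R-modENCODE), genotype wild type, homogenized and fixed with formaldehyde, and the labels name neither a tissue nor a sex. All samples share this strain, stage and genotype, and no mutant or treated group was compared. Of the 4 libraries, 2 were precipitated with an affinity-purified rabbit antibody against residues 1 to 150 of POF and 2 were input DNA, numbered 1 and 2 in the titles. The titles were followed, although 2 descriptions differ from them, since ChIP replicate 2 is described only as input DNA and input replicate 1 with the antibody. Whether the replicates are separate cultures is not stated, and the spread between replicates may be technical. No input list was analysed here, and the lists hold no read counts, so depth is unknown.

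The library labelled ChIP replicate 1 went against its label on chromosome 4, the known target, where its clusters covered a smaller share than on 2L. Clusters covered 3.92% of chromosome 4 in replicate 1, 27.9% in replicate 2 and 31.3% in the combined list. The combined share was above that of the 2L span (28.0%), 3L (29.6%) and X (27.02%) but below that of 2R (37.4%) and 3R (34.2%). These other arms were trimmed at the same distances from telomere and centromere as 2L. The combined list, which defines the members, thus did not set chromosome 4 above all the large arms. The name replicate 1 stands below for the library so labelled. Most values are given for each replicate list, so that those of replicate 2 can be read without it. Some alternatives are given only as means over both lists, and these rest on replicate 1 as well. On 2L the replicate lists lay much closer. Clusters covered 8.62% of the span in replicate 1 and 9.60% in replicate 2, a mean of 9.11% ± 0.696 (SD, n = 2), and 28.0% in the combined list. Replicate 1 held more clusters and shorter ones. Its median length was 1604 bp, against 2000.5 bp for replicate 2, and the combined list had a median of 1504 bp. Clusters over 3000 bp made up 3.87% of the clusters of replicate 1, 17.4% of those of replicate 2 and 11.05% of those of the combined list. The shortest cluster in the span measured 1301 bp in each replicate list, whereas combined clusters went down to 1001 bp.

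Clusters were not spread evenly along the arm. In blocks of 500 kb, numbered 1 to 41 from the telomere side, the combined list covered between 12.0% and 39.7% of a block, with a median of 28.1%. The outer part was dense. From 2 to 7.5 Mb, 11 blocks in a row lay at or above the median block, with 28.2% to 39.6% covered. The longest sparse run lay from 13.5 to 18.5 Mb, where 10 blocks in a row fell below the median, at 12.0% to 26.3%. Density then rose again at 18.5 Mb, and the 3 blocks up to 20 Mb were covered to between 33.2% and 39.7%.

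**Figure D1:**
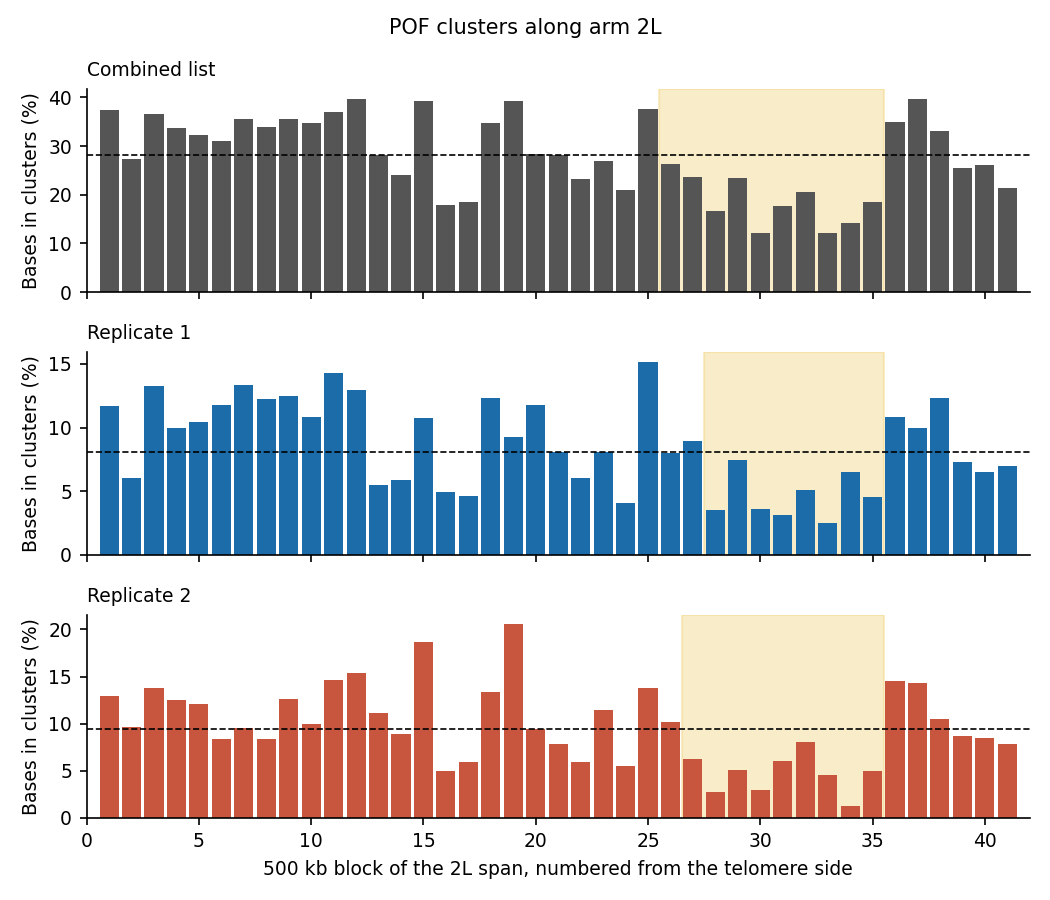
Percentage of bases inside clusters in each of the 41 blocks of 500 kb of the 2L span, from the telomere side (left) to the centromere side, in the combined list and in replicates 1 and 2. Dashed lines mark each list's median block and shading marks its longest run of blocks below that median, which ends at block 35 in all 3 lists.

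At the scale of blocks, a similar broad pattern appeared in both replicate lists. The longest run below the median reached from 14.5 to 18.5 Mb in replicate 1 (8 blocks, 2.48% to 7.44% covered) and from 14 to 18.5 Mb in replicate 2 (9 blocks, 1.28% to 8.07%). Of the 41 blocks, 35 lay on the same side of the list's own median in both replicates, and 33 did so in all 3 lists. A split at the median puts many blocks on the same side even without agreement. The combined list is also not independent of the replicate lists, and other arms were not counted this way. A smaller dip at 8.5 to 9.5 Mb was also shared, with its 2 blocks covered to 4.95% and 4.66% in replicate 1, 4.93% and 5.95% in replicate 2, and 17.8% and 18.5% in the combined list. The 3 blocks that follow it, from 9.5 to 11 Mb, lay at or above the median in all 3 lists.

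In the 5 Mb from 13.5 to 18.5 Mb, clusters covered 5.34% of the sequence in replicate 1, 5.21% in replicate 2 and 18.5% in the combined list. The rest of the span was covered to 9.67%, 11.01% and 31.03%. The ratio of the sparse run to the rest was 0.55 in replicate 1 and 0.47 in replicate 2, a mean of 0.513 ± 0.0554 (SD, n = 2), and 0.60 in the combined list. The run was marked out by its low coverage, so these ratios describe it and are no test. It held fewer clusters per Mb, at 32.2 against 54.6 in replicate 1, 24.8 against 47.5 in replicate 2 and 113 against 161 in the combined list. Clusters there were also somewhat shorter, with a median of 1540 bp against 1618 bp in replicate 1, 1911 bp against 2010 bp in replicate 2 and, for combined clusters, 1328 bp against 1544 bp. Scores, the authors' log2 values for each cluster, differed little between the run and the rest. The median score in the run and in the rest was 0.62 and 0.62 in replicate 1, 0.58 and 0.60 in replicate 2, and 0.42 and 0.42 in the combined list.

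The densest and sparsest blocks were named by their coverage in the combined list. The densest lay at 19 to 19.5 Mb (39.7% of the combined list, 9.99% for replicate 1 and 14.3% for replicate 2) and at 6.5 to 7 Mb (39.6%, 13.0% and 15.4%). They were followed by the block at 10 to 10.5 Mb (39.3%, 9.24% and 20.5%). Next came the blocks at 8 to 8.5 Mb (39.2%, 10.8% and 18.6%) and 13 to 13.5 Mb (37.6%, 15.2% and 13.8%). The last of these was the densest block of replicate 1, and the block at 10 to 10.5 Mb was the densest of replicate 2. The 5 sparsest blocks all lay inside the sparse run. They were 17 to 17.5 Mb (12.0%, 2.48% and 4.50%), 15.5 to 16 Mb (12.2%, 3.64% and 2.94%) and 17.5 to 18 Mb (14.1%, 6.48% and 1.28%). The blocks at 14.5 to 15 Mb (16.7%, 3.56% and 2.71%) and 16 to 16.5 Mb (17.6%, 3.12% and 6.03%) completed the set. In 2 blocks of the run, 14.5 to 15 Mb and 17.5 to 18 Mb, no combined cluster was touched by both replicate lists.

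At the finer scale of 100 kb, the 205 windows ranged from 2.21% to 66.0% covered in the combined list, with a median of 26.3%. No window was empty in the combined list. In replicate 1, 9 windows held no covered base, and in replicate 2, 18 did, of which 3 were empty in both. Those 3 lay at 17 to 17.1 Mb, 17.2 to 17.3 Mb and 20.5 to 20.6 Mb. The sparse run of 50 windows held 5 of the 9 and 9 of the 18. Empty windows were found on the other arms too, trimmed at the same distances. Replicate 1 had 2 of 186 on 2R, 7 of 220 on 3L, 3 of 253 on 3R and 13 of 199 on X. Replicate 2 had 6 on 2R, 18 on 3L, 15 on 3R and 15 on X. The window at 1.1 to 1.2 Mb was the densest of the combined list (66.0%) and of replicate 2 (37.4%), and was covered to 17.0% in replicate 1. The densest window of replicate 1 was at 4.4 to 4.5 Mb, with 33.2%, where replicate 2 had 22.2% and the combined list 60.2%. At 12 to 12.1 Mb both replicates were dense, with 26.2% and 36.1%, although its block lay below the median of the combined list.

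**Figure D2:**
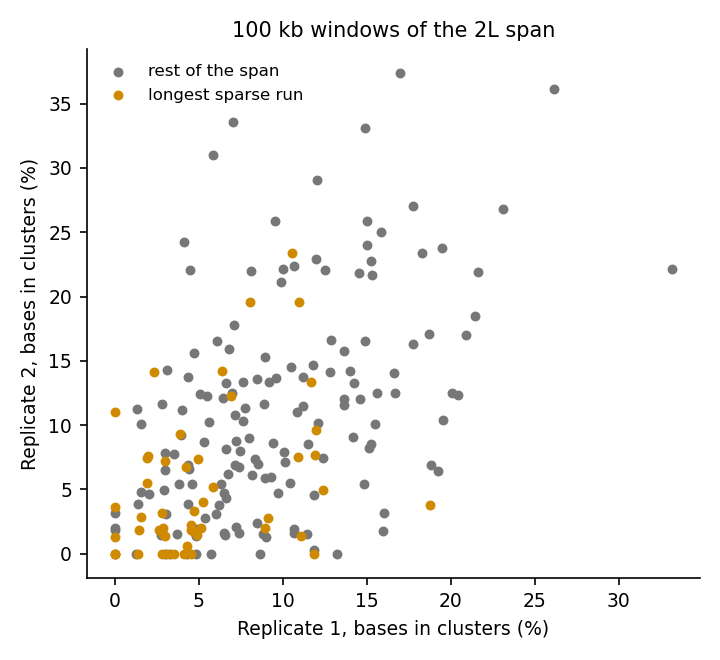
Each point is 1 of 205 windows of 100 kb of the 2L span, with the percentage of bases inside clusters of replicate 1 (x axis) and of replicate 2 (y axis). Most windows of the sparse run at 13.5 to 18.5 Mb (orange) lie at low values in both lists. Some windows, inside the run as well as elsewhere, are covered to over 10% in 1 list and hardly at all in the other.

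Over these 205 windows, coverage in replicates 1 and 2 gave 0.51 as Spearman's rho and 0.52 as Pearson's r. On the middle of the other arms, rho over windows was 0.33 on 2R, 0.39 on 3L, 0.32 on 3R and 0.44 on X, each lower than on 2L, and the difference was not tested. Over the 41 blocks of 500 kb of 2L, rho was 0.74 and r was 0.69. Windows of 1 arm are not independent and share their sequence, with its base composition and mappability, between the lists, so these coefficients are descriptions. Without the sparse run, an alternative added once values were known, rho over windows was 0.48. Of the 20 densest windows of each replicate list, 7 were the same, or 35% of each set, and of the 20 sparsest, 5 were the same (25%). Coverage within a list followed the number of clusters (rho over windows of 0.91, 0.98 and 0.97 in the combined list, replicate 1 and replicate 2). It was less closely related to their median score (-0.11, -0.03 and 0.24, over the 205, 196 and 185 windows that held a cluster midpoint). Over the 41 blocks, rho between coverage and median score was -0.04 for combined clusters, 0.14 for replicate 1 and 0.40 for replicate 2.

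Coverage fell from the telomere side towards the centromere side. In replicate 1 the distal, middle and proximal parts of the span, of equal length, were covered to 10.9%, 8.40% and 6.52%, and in replicate 2 to 11.5%, 10.1% and 7.22%. The combined list gave 33.5%, 27.9% and 22.5%. The distal part exceeded the proximal part by 4.34 percentage points ± 0.0963 (SD, n = 2). With the sparse run left out, the difference was 1.35 ± 0.829 (SD, n = 2).

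Stretches without any cluster were short in the combined list and long in the replicate lists. The median uncovered stretch was 2475 bp in the combined list, 9853 bp in replicate 1 and 7817 bp in replicate 2. The 5 longest of the combined list all lay in the sparse run, at 17293938 to 17370650 (76713 bp), 14393288 to 14469547 (76260 bp) and 17672630 to 17744253 (71624 bp), then 15652120 to 15717048 (64929 bp) and 17040738 to 17105480 (64743 bp). Of these 5, 3 were free of clusters in both replicate lists as well. Replicate 2 had its longest gap at 16916862 to 17383125, a stretch of 466264 bp with 3 clusters of replicate 1 and 22 of the combined list. Replicate 1 had its longest at 16913773 to 17180148 (266376 bp), inside nearly the same place, with 1 cluster of replicate 2. The next gaps of replicate 1 lay at 14361425 to 14563255 (201831 bp), 20933490 to 21119979 (186490 bp), 17186182 to 17357534 (171353 bp) and 20460324 to 20623457 (163134 bp). Those of replicate 2 lay at 17501412 to 17783841 (282430 bp), 15500570 to 15729169 (228600 bp), 16050786 to 16256659 (205874 bp) and 8542909 to 8734763 (191855 bp). The gap of replicate 2 at 17501412 held 10 clusters of replicate 1, and the gap of replicate 1 at 14361425 held 6 of replicate 2, so long empty stretches of 1 list were not always empty in the other.

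The middle of 2L was compared with the middle of the other large arms, trimmed at the same distances from telomere and centromere. In replicate 1, 8.62% of the 2L span was covered, against 11.2% on 2R, 8.69% on 3L, 10.7% on 3R and 5.66% on X. In replicate 2 the values were 9.60% on 2L, 12.4% on 2R, 9.77% on 3L, 10.7% on 3R and 11.1% on X. The span of 2L was lower than the other 4 arms pooled by 0.52 percentage points in replicate 1 and by 1.34 in replicate 2, a mean difference of -0.932 ± 0.581 (SD, n = 2; two-sided exact sign-flip permutation test over the replicates, p = 0.5, the smallest that 2 replicates allow). Against 3L alone the difference was -0.122 ± 0.0738 (SD, n = 2; exact permutation p = 0.5), and against X it changed sign between the replicates (2.96 in replicate 1 and -1.505 in replicate 2; exact permutation p = 1). In the combined list the difference from the other 4 arms was -4.07. With X left out, the difference was -1.57 in replicate 1 and -1.29 in replicate 2, a mean of -1.43 ± 0.196 (SD, n = 2). No difference between arms can pass a threshold of 0.05 in this design.

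The contrast within the arm was wide. Over stretches of 5 Mb, moved in steps of 500 kb, the lowest on 2L was the sparse run at 13.5 to 18.5 Mb in each of the 3 lists. The highest stretch of 2L exceeded the lowest 1.89-fold for combined clusters, 2.28-fold for replicate 1 and 2.37-fold for replicate 2. The same ratio lay between 1.18 and 1.502 on 2R, 3L, 3R and X in the combined list, between 1.38 and 1.78 in replicate 1 and between 1.27 and 1.65 in replicate 2. The ratio was thus highest on 2L in these 3 lists, with 3L next, and with 2 replicates this ordering cannot reach an exact p below 0.5. The variance of the number of clusters per 100 kb window, divided by its mean, was 1.69 on 2L in the combined list, close to 1.73 on 3L and 1.70 on X, and 1.14 on both 2R and 3R. In replicate 1 it was 1.92 on 2L, against 1.18 on 2R, 1.71 on 3L, 1.499 on 3R and 1.65 on X. In replicate 2 it was 2.49 on 2L, against 2.01 on 2R, 2.24 on 3L, 2.15 on 3R and 2.22 on X.

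**Figure D3:**
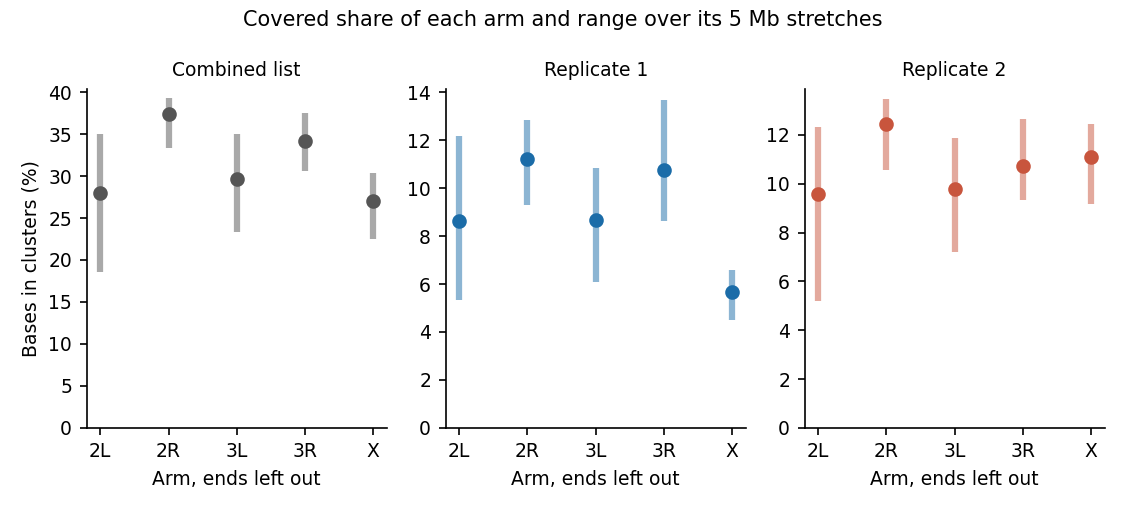
Points give the percentage of bases inside clusters over the middle of each arm, and bars run from the lowest to the highest stretch of 5 Mb, for the combined list and replicates 1 and 2. The bar of 2L reaches lowest in the combined list (18.5%) and in replicate 2 (5.21%), whereas on X the bar of replicate 1 lies lower still (4.51%).

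The shares of clusters touched by each replicate list on 2L were close to those of the arms as a whole. Of the 3060 combined clusters, 273 (8.92%, exact Clopper-Pearson 95% interval 7.93% to 9.99%) were touched by both replicate lists by at least 1 bp, against 8.57% of the combined clusters on all 6 assembled arms (2L, 2R, 3L, 3R, 4 and X). Replicate 1 alone touched 659 (21.5%, against 20.7% on the arms), replicate 2 alone touched 567 (18.5%, against 19.7%) and neither list touched 1561 (51.01%, against 51%). These intervals cover counting error among clusters only. Of the 1007 clusters of replicate 1, 287 (28.5%, against 27.8% on the arms) were touched by replicate 2. Of the 860 clusters of replicate 2, 274 (31.9%, against 29.2%) were touched by replicate 1. The combined list touched 950 clusters of replicate 1 (94.3%, against 95.1%) and 844 of replicate 2 (98.1%, against 98.1%).

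Counted in bases, 23.8% of the sequence covered in replicate 1 was also covered in replicate 2, which covered 9.60% of the span, and 21.4% of that of replicate 2 was covered in replicate 1, which covered 8.62%. The bases common to both lists were 12.7% of those covered in either, against 10.8% on 2R, 11.5% on 3L, 11.4% on 3R and 9.63% on X. Of the bases covered in the combined list, 47.4% lay in clusters of neither replicate. Clusters of replicate 1 that missed replicate 2 lay a median of 8415 bp from its nearest cluster, and 56.4% of all replicate 1 clusters were within 5 kb of one. From replicate 2 to replicate 1, the median was 5180.5 bp and the share 65.3%. Both shares include touching clusters. What cluster density alone would give was not computed, nor were the other arms. In the 287 overlapping pairs, the replicate 2 cluster was the longer in 219, and the pair shared a median of 1451 bp, or 89.2% of the replicate 1 cluster and 54.3% of the replicate 2 cluster.

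The shares of clusters touched were lower in the sparse run than in the rest of the span, and so was the coverage. In the sparse run, 28 of 161 replicate 1 clusters (17.4%) were touched by replicate 2, which covered 5.21% of it. In the rest of the span it was 259 of 846 (30.6%), with 11.01% covered. In the other direction, 26 of 124 replicate 2 clusters (21.0%) were touched in the run and 248 of 736 (33.7%) outside it. Replicate 1 covered 5.34% of the run and 9.67% of the rest. Fewer clusters can be touched where the other list covers less, and the difference beyond coverage was not tested. Single blocks did not always follow combined coverage. At 4.5 to 5 Mb (33.9% covered), 5 of 35 replicate 1 clusters (14.3%) were touched by replicate 2. At 21 to 21.5 Mb (21.3% covered), 9 of 20 (45%) were.

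Long clusters were found in both replicates far more often than short ones. Among combined clusters of 1001 to 1300 bp, shorter than any replicate cluster, 0 of 1122 were touched by both lists and 85.0% by neither. These short clusters made up 36.7% of the members and 22.1% of their bases. From 1301 to 1999 bp, 18 of 1101 (1.63%) were touched by both. The share was 16.6% of 499 clusters from 2000 to 2996 bp, 44.7% of 264 from 3007 to 4988 bp and 73.0% of 74 from 5008 to 12585 bp. A longer cluster has more bases that another can touch. The median length was 3510 bp for clusters that both lists touched and 1227 bp for those that neither did. On 2R, 3L, 3R and X these medians were 3288 to 3671 bp and 1216 to 1263 bp. The length classes were not counted on the other arms.

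**Figure D4:**
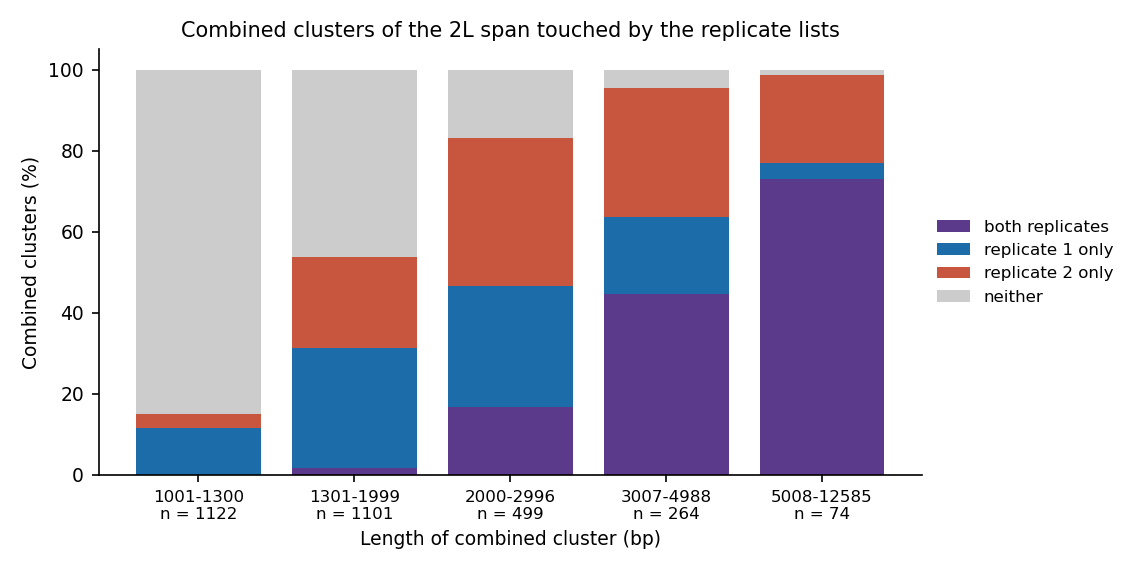
Combined clusters of the 2L span in 5 classes of length (x axis, bp), split by whether both replicate lists, 1 of them or neither touched them by at least 1 bp (stacked percentages). The share touched by both runs from 0% in the shortest class to 73.0% in the longest.

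Score levels are described for each list on its own. In the combined list, scores in the span had a median of 0.42, a 10th to 90th percentile range of 0.33 to 0.53 and extremes of 0.04 and 3.21. The median was 0.62 in replicate 1 (highest 1.06) and 0.60 in replicate 2 (highest 2.22). A score of at least 1 was reached by 43 combined clusters (1.41% of 3060, against 1.4% on all 6 arms), by 2 clusters of replicate 1 (0.20%, against 0.866% on the arms) and by 104 clusters of replicate 2 (12.1%, against 11.9%). In replicate 2, clusters that scored at least 1 were touched by replicate 1 in 78 of 104 cases (75%), and those below 1 in 196 cases (25.9%). Higher scores went with length in replicate 2 (rho 0.67 over 860 clusters), less so in replicate 1 (0.29 over 1007) and in the combined list (0.13 over 3060). In replicate 1, the share touched by replicate 2 hardly varied with score. It was 30.1%, 29.0% and 26.5% in the lowest, middle and highest of 3 score classes of equal size, against 16.4%, 29.0% and 50.2% for the same classes of replicate 2 touched by replicate 1. Touched shares by score were not computed on the other arms, so they are not shown to be particular to 2L.

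The combined score followed replicate 2 more closely than replicate 1. Over the 273 combined clusters touched by both lists, the combined score gave Pearson's r 0.95 and rho 0.86 with the score of the replicate 2 cluster of largest overlap, and r 0.26 and rho 0.14 with that of replicate 1. Over all 840 combined clusters touched by replicate 2, r was 0.92 and rho 0.78. For the 932 touched by replicate 1, r was 0.25 and rho 0.36, so the contrast in rho was narrower. How the combined list was made is not stated, and it is not independent of the replicate lists. Between the replicates, over the 287 overlapping pairs, rho was 0.02 and r 0.15 for the scores, and rho was 0.14 for the lengths. Pairs that coincided in position thus showed almost no shared ranking by score.

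**Figure D5:**
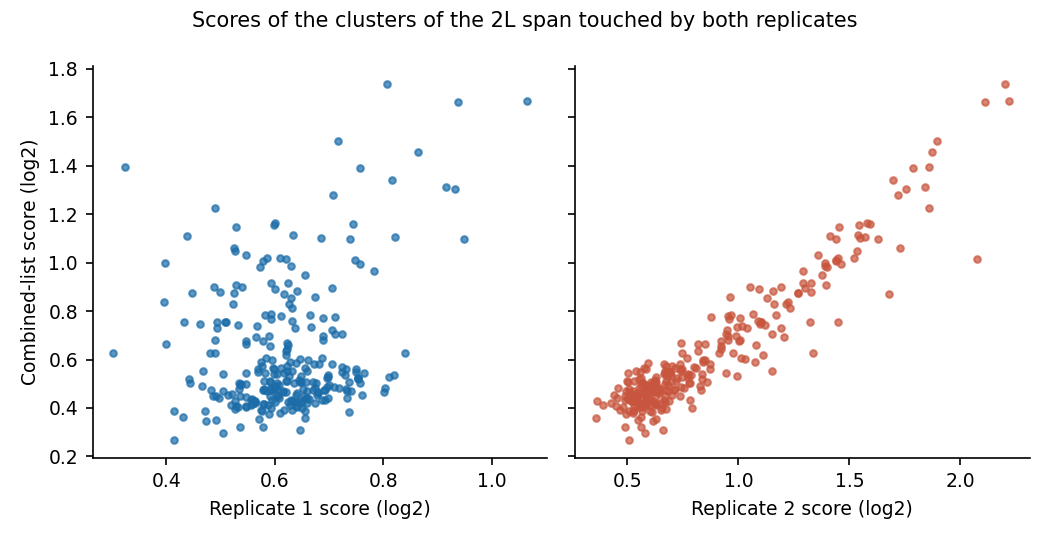
Each point is 1 of the 273 combined clusters of the 2L span touched by both replicate lists, with its combined score (y axis, log2) against the score of the largest overlapping cluster of replicate 1 (left) or replicate 2 (right). Points form a narrow band against replicate 2 (r 0.95) and a broad cloud against replicate 1 (r 0.26).

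The 10 clusters with the highest combined scores among those touched by both lists were 2236 to 4942 bp long and scored 1.30 to 1.74. The leading cluster, at 18151192 to 18153555 (2364 bp), had a combined score of 1.74, against 0.81 for its replicate 1 cluster and 2.20 for that of replicate 2. It lay inside the sparse run, in the block at 18 to 18.5 Mb. The next, at 21213286 to 21216184, scored 1.67, with 1.06 in replicate 1 and 2.22 in replicate 2, the highest score of each replicate list in the span. Of the 10, 3 lay close together in the dense block at 13 to 13.5 Mb. They were found at 13214812 to 13218480 (1.66, with 0.94 in replicate 1 and 2.11 in replicate 2), 13210764 to 13213048 (1.39, 0.76 and 1.79) and 13175737 to 13178896 (1.34, 0.82 and 1.70).

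The other 5 of these clusters were scattered. They lay at 2854734 to 2857195 (combined score 1.504), 6454646 to 6457486 (1.46), 20863833 to 20866068 (1.39), 13900781 to 13905722 (1.31) and 10505693 to 10509329 (1.30). Within replicate 2, the clusters at these 10 places lay at percentiles 98.4 to 99.7 of the scores on the 6 arms. Within replicate 1 the percentiles ran from 0.34 to 99.4 (median 95.8). The low value belongs to 20863833, which scored 0.32 in replicate 1 and 1.86 in replicate 2. The clusters were chosen by the combined score, which is not independent of replicate 2.

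The 5 longest combined clusters measured 10157 to 12585 bp, and both replicate lists touched all 5. The longest, at 4450604 to 4463188 (12585 bp, score 0.79), corresponded to a single cluster of 12100 bp in replicate 2 (score 1.07) and to 3 separate clusters in replicate 1. A further one had its midpoint in the same 100 kb window, at 4493256 to 4505400 (12145 bp, score 0.48), with 3 clusters in replicate 1 and 1 cluster of 2259 bp in replicate 2. The others were at 19576646 to 19587918 (11273 bp), 10729059 to 10740310 (11252 bp) and 11999557 to 12009713 (10157 bp, score 1.16). Each of these 3 was split into 3 clusters in replicate 1 and 2 in replicate 2.

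The 3 highest scores of the span belonged to short clusters that neither replicate list touched. They were at 21426019 to 21427019 (1001 bp, score 3.21), 5177663 to 5178663 (1001 bp, 2.57) and 8452443 to 8453447 (1005 bp, 2.40). Among clusters that neither list touched, the next were 21473481 to 21474581 (1101 bp, 1.51) and 17913210 to 17914225 (1016 bp, 1.47). Of the 43 combined clusters that scored at least 1, 30 (69.8%) were touched by both lists, against 8.92% of all 3060. Neither list touched 10, against 51.01% of all 3060, while 3 were touched by replicate 2 alone and 0 by replicate 1 alone. This split was not computed for high scores on the other arms. Those 10 had a median length of 1019.5 bp, against 3583.5 bp for the 30. Of all combined clusters of 1001 to 1300 bp in the span, 85.0% were touched by neither list.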

How the data were processed

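The submitters' processing notes name the aligner Bowtie 0.12.7, without its settings. Positions refer to FlyBase release 5, per the file headers. Not given in the sources used here were caller, threshold, input and whether reads were pooled or lists merged for the combined list. The deposited scores are treated as log2, judged by their range, and no header states their reference. Score levels were therefore not tested between lists. Scores of overlapping clusters were correlated across lists and are printed side by side.

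From the deposited lists, the covered share (bases inside clusters), cluster lengths, uncovered stretches, windows of 100 kb and blocks of 500 kb from the span's start, and overlaps of at least 1 bp were computed. The 1 region called depleted was left out. Groups came from the titles. Covered shares of arms were compared by an exact sign-flip permutation test over the 2 replicates; other values are descriptions, since clusters and windows are not replicates. Clusters named in the text follow a rule: the 10 highest combined scores touched by both lists, the 5 longest, the 5 highest scores touched by neither, the 5 longest gaps of each list, the 5 densest and 5 sparsest blocks, and empty windows. The members, lists and rules were chosen with earlier results of these data known. The gene table given is of release 6 and coordinates were not converted, so no gene was placed and no sequence is printed. Alternatives were filters on score and length, merging within 1000 bp, stricter overlaps and other windows. The counting functions recovered the known answers in 20 of 20 simulated lists. Software was scipy 1.17.1, numpy 2.4.6, matplotlib 3.10.9 and pandas 2.3.3 under Python 3.11.15.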

Additional observations from a re-analysis of the deposited data

Results flagged for a closer look

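The combined list holds 1 region called depleted in place of enriched, and it lies inside the span of 2L, at 13370022 to 13371374 (1353 bp, score -0.036). It drew attention because it is a signal in a row that the comparisons do not use, and no input list sets a background for it. It lies in the dense block at 13 to 13.5 Mb, with combined clusters 885 bp before and 96 bp after it. In replicate 2 the whole of it falls in a cluster called enriched, at 13370004 to 13371434 (1431 bp), whose score of 0.09 is the lowest of that list in the span. Replicate 1 has no cluster there, and its nearest begins 895 bp after it.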

How the results depend on the processing

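The lists give no depth, clusters are called regions without counts, and 2 replicates cannot give a two-sided exact p below 0.5. Only the arm difference, the distal excess and the window coefficient could change sign, and none did under the 54 alternative values computed. Of these values, 27 stayed within their error or tolerance (for the window coefficient, 0.1). For the arm difference, which has a test, that count takes values that kept their direction and side of the threshold. The count says little about robustness. Leaving out 1 of 2 replicates cannot move their mean by its SD, and no arm difference can pass the threshold. With clusters at or above each list's median score, the mean covered share of the span was 4.74% ± 1.004 (SD, n = 2). The median length was 2133.5 bp ± 538 and the distal excess 2.71 percentage points ± 0.259 (SD, n = 2). The shares were then 5.66% of combined clusters touched by both, 17.8% of replicate 1 and 20.1% of replicate 2, with a window rho of 0.34 and 76 windows empty in at least 1 replicate, against 24. With clusters of at least 2000 bp, the covered share was 4.37% ± 2.68 and the median length 2412.5 bp ± 182 (SD, n = 2). The distal excess was 2.49 points ± 0.698 (SD, n = 2). The touched shares, in the same order, were 7.65%, 32.8% and 15.9%, and the combined median score was 0.46. The combined list in place of the replicates gave 28.0% covered, a median of 1504 bp and a distal excess of 11.04 points. The difference from the other arms, -0.932 points, kept its sign but was -4.07 in the combined list, -1.43 with X left out (added once values were known) and -0.52 with clusters of at least 2000 bp. Merging within 1000 bp gave 13.2% touched by both. An overlap of 50% of the cluster counted gave 4.05% by both, 22.9% of replicate 1 and 18.1% of replicate 2, and 50% of the shorter cluster gave 23.8% and 26.2%. In blocks of 500 kb rho was 0.74. Chosen after the data were seen, leaving out the sparse run gave a distal excess of 1.35 points, and combined clusters no shorter than the shortest replicate cluster gave 14.1% touched by both. Leaving out either replicate gave ranges of 8.62% to 9.60% covered, 1604 to 2000.5 bp, 4.27 to 4.41 points and -1.34 to -0.52 points against the other arms. No paired analysis was possible because the input libraries that share the replicate numbers have no list here.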

Other observations

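The last window of the span, at 21.4 to 21.5 Mb, was picked for its values. It held 5 combined clusters and only 7.06% coverage, yet all 5 scored above 1, with scores of 3.21 (21426019 to 21427019), 1.51 (21463393 to 21465052), 1.07 (21468445 to 21470174), 1.51 (21473481 to 21474581) and 1.01 (21478616 to 21480180). Replicate 2 had 2 clusters there, at 21463391 (score 2.03) and 21468551 (score 1.66), and replicate 1 had none. Beyond the last of them, the next combined cluster began at 21578377, outside the span.

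A single score recurred in the combined list. The value 0.40 was shared, digit for digit, by 81 members (2.65%, against 2.61% of all clusters on the 6 arms). Neither replicate list touched 53 of the 81, a larger share than the 51.01% among all members. The median length was 1387 bp for the 81, against 1504 bp for all members. In replicate 1 the most frequent score, 0.55, was shared by 29 of 1007 clusters (2.88%), and in replicate 2 no score was shared by more than 6 clusters.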
